A study of Mus musculus with 6 samples.

Results

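Exonic H3K9ac intervals were the stretches of enriched chromatin that the deposited peak lists place in the exon class, and they came from intestinal epithelial cells of the mouse distal intestine. Each of the 6 lists was searched for unique intervals of that class, and intervals that overlapped by at least 1 bp were merged over the libraries. This left 839 merged exonic regions, from 1345 intervals, among 23987 merged regions of all classes. The mice were C57BL/6 and were germ-free (raised without microbes), monoassociated with E. coli (carrying no other microbe) or conventionally housed (carrying an ordinary microbiota). Each group had 2 libraries, and the labels give no age, no genetic modification and no statement that the 2 libraries came from separate animals or from pools. The p-values below therefore measure only the spread between libraries, which may be technical.

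H3K9ac, acetylation of lysine 9 of histone H3, is placed by acetyltransferases of the GCN5 and PCAF family and removed by histone deacetylases. It is a mark of active transcription that is densest around start sites and can run into the transcribed part of strongly expressed genes. Exons are the parts of a gene kept in the mature RNA. In these lists the nearest edge of any exon-class interval lay 1002 bp or more from the start site assigned to its host gene, so a small distance from the start site is shut out by the class itself. Of the epithelial identity genes 16 of 16 carried a promoter-class interval in at least 1 library, while 0 of 8 stroma and muscle markers and 0 of 8 immune markers did. The labels give the same sequencing depth for every library, with reads of 50 bp, and read totals were not used here. The lists differed in length, from 868 nuclear intervals in E. coli replicate 2 to 17092 in germ-free replicate 2. Conventional replicate 2 was the other long list, with 15348. The lists hold called intervals alone, so a gene without one may still carry weaker acetylation. Fewer cells of a type with the mark and less of it per cell cannot be told apart in such bulk chromatin.

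Few exonic regions met a start site other than the one assigned to the host. Only 15 of the 839 regions (1.79%) overlapped a RefSeq start window (250 bp before to 50 bp after a start site), and 9 of them held the site itself. Intervals near another start site that the authors used may have been put in the promoter class. The low share may therefore follow from the class itself. The 3 windows below are shown because they are further start sites of the host gene itself and lie in regions called exonic in 2 or more libraries. They come from the RefSeq promoter table of GRCm38.p6, are written 5′ to 3′ on the plus strand, and have in capitals the bases inside the merged exonic region.
Rnf114: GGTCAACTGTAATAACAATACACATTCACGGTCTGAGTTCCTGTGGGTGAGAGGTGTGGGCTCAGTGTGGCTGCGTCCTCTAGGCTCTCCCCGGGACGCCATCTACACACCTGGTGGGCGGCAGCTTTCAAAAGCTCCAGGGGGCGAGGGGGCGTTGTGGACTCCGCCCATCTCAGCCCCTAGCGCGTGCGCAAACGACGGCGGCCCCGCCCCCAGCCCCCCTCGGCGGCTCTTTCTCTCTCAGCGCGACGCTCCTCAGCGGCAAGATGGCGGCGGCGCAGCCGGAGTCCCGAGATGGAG
Midn: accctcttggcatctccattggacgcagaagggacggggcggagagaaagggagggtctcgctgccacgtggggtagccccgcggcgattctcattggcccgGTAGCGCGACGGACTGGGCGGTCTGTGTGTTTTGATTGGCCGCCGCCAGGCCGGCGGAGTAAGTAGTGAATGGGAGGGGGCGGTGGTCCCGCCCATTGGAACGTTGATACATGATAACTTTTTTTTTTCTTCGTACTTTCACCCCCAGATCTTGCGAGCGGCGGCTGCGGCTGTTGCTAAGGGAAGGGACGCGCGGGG
Lmo7: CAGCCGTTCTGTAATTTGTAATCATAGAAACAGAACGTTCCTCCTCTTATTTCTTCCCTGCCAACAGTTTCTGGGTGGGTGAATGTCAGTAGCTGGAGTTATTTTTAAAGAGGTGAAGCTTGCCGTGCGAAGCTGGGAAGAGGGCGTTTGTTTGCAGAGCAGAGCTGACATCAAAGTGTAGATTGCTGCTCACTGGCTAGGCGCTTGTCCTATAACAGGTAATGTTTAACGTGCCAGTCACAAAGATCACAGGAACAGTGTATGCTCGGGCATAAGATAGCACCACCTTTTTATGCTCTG
The Rnf114 window (chr2:167503193-167503492) lies 10798 bp downstream of the start site that the lists assign, and holds 26 CpG dinucleotides at 65.7% G+C. Rnf114 encodes a RING-type ubiquitin ligase. The Midn window (chr10:80149432-80149731) lies 1392 bp downstream and holds 28 CpG at 61.7% G+C. The Lmo7 window (chr14:101840373-101840672) lies 110695 bp downstream and holds 8 CpG at 46.0% G+C. Lmo7 encodes a LIM-domain protein of cell junctions. Across all 32851 windows of the table the median was 7 CpG (quartiles 3 and 20), so the Rnf114 and Midn windows stood above the upper quartile and the Lmo7 window near the median. An interval of some class covered the Rnf114 region in all 6 libraries, of the exon class in 4 and of the intron class alone in E. coli replicate 2 and conventional replicate 1. The Lmo7 region, 4179 bp wide, was likewise covered in 6 libraries, but was called exonic in 2, germ-free replicate 2 and conventional replicate 2. The Midn region was called in germ-free replicates 1 and 2 and conventional replicate 2 (folds over background of 4.04, 8.87 and 7.24), each time with an interval of the exon class.

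The exon class was a small share of every list and was highest in the E. coli libraries. Exonic intervals made up 3.23% (143 of 4428; 95% Wilson interval 2.75 to 3.79) and 2.81% (481 of 17092; 2.58 to 3.07) of nuclear intervals in germ-free replicates 1 and 2. The E. coli libraries had 5.24% (104 of 1986; 4.34 to 6.31) and 7.72% (67 of 868; 6.12 to 9.69). The conventional libraries had 3.34% (104 of 3113; 2.77 to 4.03) and 2.91% (446 of 15348; 2.65 to 3.18). These intervals cover counting error alone. Both E. coli values lay above the other 4, which overlapped among themselves. Group means were 3.02% ± 0.294 (SD, n = 2) germ-free, 6.48% ± 1.75 (SD, n = 2) E. coli and 3.12% ± 0.308 (SD, n = 2) conventional.

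Set against the germ-free libraries, the E. coli libraries differed by 3.46 percentage points (exact permutation p = 0.333, the smallest that 2 against 2 libraries allow, two-sided, adjusted p = 0.571 over 12 tests). This gap was 6.63 points among intervals with a -log10 q of 5 or more and 2.21 points without E. coli replicate 2. Conventional and E. coli libraries differed by -3.35 points (exact permutation p = 0.333, adjusted p = 0.571), or by -6.97 and -2.11 points under the same changes and -2.08 points without the Sfi1 and Pisd hosts described next. Conventional and germ-free libraries differed by 0.102 points (exact permutation p = 0.667, adjusted p = 0.727), and the sign of this difference turned when those hosts were left out (-0.103 points). Differences between the 3 groups made up 82.6% of the sum of squares of the share (p = 0.133 by exact permutation over 15 splits, adjusted p = 0.571). List length moved with the share, since the E. coli lists were the 2 shortest. With the 868 most significant intervals of every list, the shares were 5.53 and 3.34% germ-free, 6.57 and 7.72% E. coli, and 4.95 and 2.30% conventional. This setting kept the whole list of E. coli replicate 2, weakest calls included, while it cut the others to their strongest. The gap between E. coli and germ-free was then 2.71 points. Of the exonic intervals kept, 13, 13, 21, 24, 22 and 10 in the same order belonged to the hosts described next. Those of all other hosts numbered 35, 16, 36, 43, 21 and 10.

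**Figure D1:**
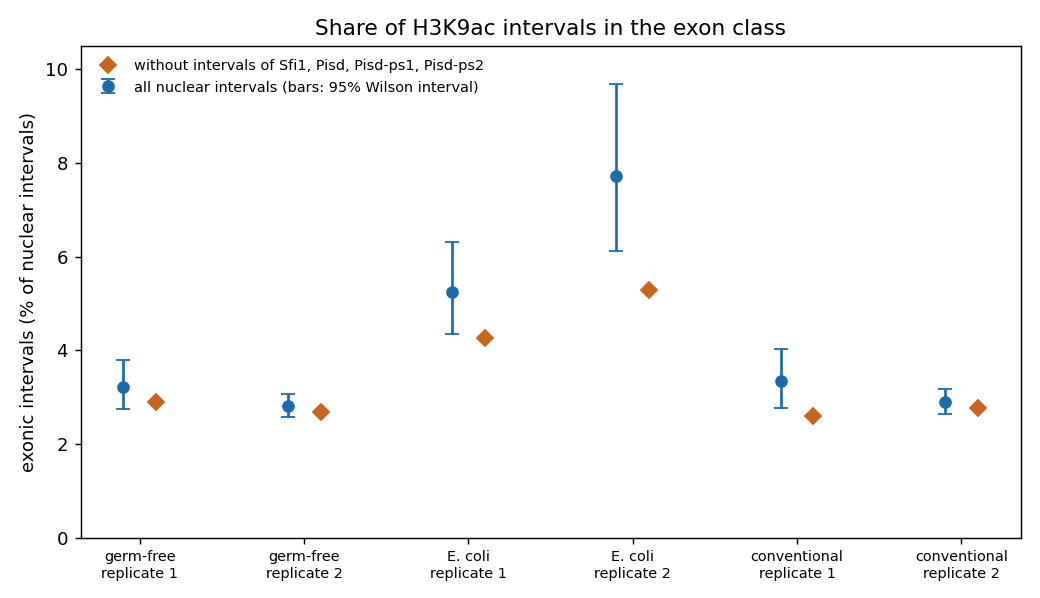
Exonic intervals as a percent of all nuclear intervals (vertical axis) in each of the 6 libraries (horizontal axis). Circles with bars are all intervals with 95% Wilson intervals, and diamonds leave out intervals tied to Sfi1, Pisd, Pisd-ps1 or Pisd-ps2; the E. coli libraries were highest by either measure, at 5.24 and 7.72% (circles) and 4.27 and 5.28% (diamonds).

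A few hosts supplied most of the exonic length in the 4 shorter lists and less in the 2 longest. Sfi1, which encodes a centrosome protein, lies beside Pisd-ps1, a pseudogene copy of the phosphatidylserine decarboxylase gene Pisd, and Pisd-ps2 is another such copy on chromosome 17. Reads from such copies may not be told apart, which was not tested, and how the authors treated reads with several matches is not given in the sources used here. Exonic intervals of these 4 hosts numbered 16 and 22 (germ-free), 21 and 24 (E. coli), and 24 and 22 (conventional). Their number was thus much alike in all lists, short or long. They covered 53.5 and 47.8 kb (germ-free), 51.3 and 41.2 kb (E. coli) and 44.9 and 50.7 kb (conventional), while all exonic intervals covered 93.7 and 228.2, 77.6 and 53.2, and 73.2 and 209.8 kb. Their share of the exonic length was therefore 57.1 and 20.9%, 66.1 and 77.5%, and 61.4 and 24.2% in the same order. After merging they formed 17 of the 839 regions, with 57.0 of 395.2 kb. Without them the exonic share was 2.89 and 2.69% (germ-free), 4.27 and 5.28% (E. coli), and 2.61 and 2.77% (conventional). E. coli and germ-free libraries then differed by 1.98 points (exact permutation p = 0.333), an alternative added after the data were seen.

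**Figure D2:**
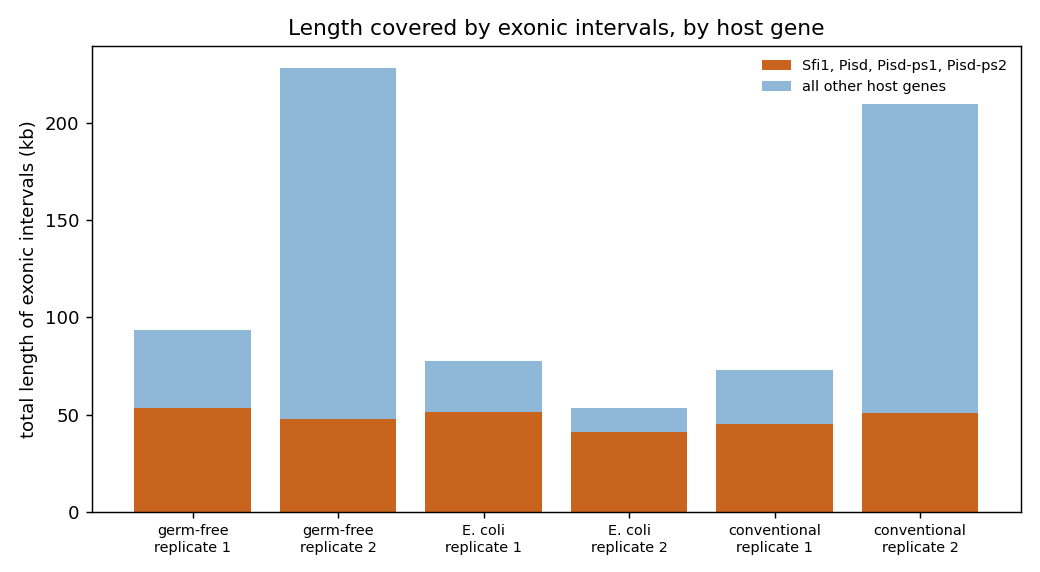
Total length of exonic intervals in kb (vertical axis) in each library (horizontal axis), split by host gene. The lower segments, for Sfi1, Pisd, Pisd-ps1 and Pisd-ps2, lie between 41.2 and 53.5 kb in all 6 libraries, while the upper segments are large in germ-free replicate 2 and conventional replicate 2 alone.

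Exonic intervals were wider than intronic ones in every library while all hosts were kept. The median exonic width was 228 and 261 bp (germ-free), 259.5 and 265 bp (E. coli), and 281.5 and 265.5 bp (conventional). Intronic medians in the same order were 168 and 209, 167 and 234, and 208.5 and 196 bp. The mean difference was 63.0 bp (higher in 6 of 6 libraries, range 31 to 92.5 bp; exact sign-flip permutation p = 0.0312, the smallest that 6 libraries allow, adjusted p = 0.0938 over 6 tests), which missed the 0.05 threshold after adjustment. Without the Sfi1 and Pisd hosts it was 42.3 bp (exact p = 0.0625, adjusted p = 0.188), and in E. coli replicate 2 the exonic median, 205 bp, was then below the intronic one, 234 bp. Against promoter-class intervals, whose medians were 211 and 308, 201 and 208, and 231 and 313 bp, the difference was 14.8 bp (higher in 4 of 6; exact permutation p = 0.406, adjusted p = 0.487), and -8.33 bp without those hosts. The promoter class was the wider one in the 2 longest lists. Between housing groups the median exonic width was 244.5 ± 23.3 bp germ-free, 262.2 ± 3.89 bp E. coli and 273.5 ± 11.3 bp conventional (SD, n = 2 each). None of the 3 group differences could pass with 2 libraries a group (exact permutation p of 0.333, 0.333 and 0.667, adjusted p of 0.571, 0.571 and 0.727).

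Exonic intervals also recurred more often than intronic ones in every library, a difference that did not pass after adjustment. A wider interval can overlap another more readily, and the part of width in the recurrence was not tested. The share of a library's exonic intervals that overlapped any interval of the other library of its group was 70.6 and 15.6% (germ-free), 39.4 and 74.6% (E. coli) and 92.3 and 16.8% (conventional). The shorter list of each group had the larger share. Within libraries, the exonic share exceeded the intronic one by 12.5 percentage points on average (6 of 6, range 6.71 to 24.7; exact permutation p = 0.0312, adjusted p = 0.0938). Without the Sfi1 and Pisd hosts the excess was 8.42 points (exact p = 0.0312, adjusted p = 0.188). Against the promoter class the difference was 2.77 points (2 of 6 higher; exact permutation p = 0.688, adjusted p = 0.688), and -2.81 points without those hosts. The host gene also had a promoter-class interval in the same library for 58.0 and 75.5% (germ-free), 52.9 and 50.7% (E. coli), and 64.4 and 72.7% (conventional) of exonic intervals. The mean difference from intronic intervals was 10.49 points (4 of 6 higher; exact permutation p = 0.125). Ranked by the authors' -log10 p within each list (100 the strongest), exonic intervals had a mean of median ranks of 60.0, against 45.2 for intronic (exact permutation p = 0.0625, adjusted p = 0.125) and 51.6 for promoter-class intervals (exact permutation p = 0.25, adjusted p = 0.375). Without the Sfi1 and Pisd hosts the exonic minus intronic difference in rank was 0 and the exonic minus promoter difference was -9.40.

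Exonic regions were spread along their host genes, and a larger share of them than of intronic regions lay at the gene end. The centre of a region lay a median of 3656 bp from the host's start site (quartiles 1718 and 14091 bp), and 321 of 839 (38.3%) lay within 2.5 kb, 257 (30.6%) between 2.5 and 10 kb and 261 (31.1%) beyond 10 kb. On a scale from 0 at the start site to 1 at the gene end, the median place was 0.571. The last 10% of the gene length, counted with regions centred past the gene end, held 176 regions (21.0%). How much of the exon sequence lies there was not computed. The 6202 merged intronic regions had a median place of 0.237, with 212 (3.42%) in the last 10% counted in the same way. Their hosts were longer, with a median of 53.4 kb against 12.3 kb, and their median distance was 7659 bp. These positions are descriptions, because the class was assigned from position. A further RefSeq start site lay within 1 kb of 39 exonic regions (4.65%) and of 319 intronic regions (5.14%). The median distance was 3687 ± 358.9 bp germ-free, 4001 ± 7.96 bp E. coli and 4019 ± 124.3 bp conventional (SD, n = 2 each; smallest exact permutation p = 0.333, adjusted p = 0.571). Its differences depended on the intervals kept. E. coli minus germ-free was 314.1 bp over all intervals, 4829 bp at a -log10 q of 5 or more, 1262 bp at a fold of 5 or more and -2984 bp at an equal number of intervals.

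**Figure D3:**
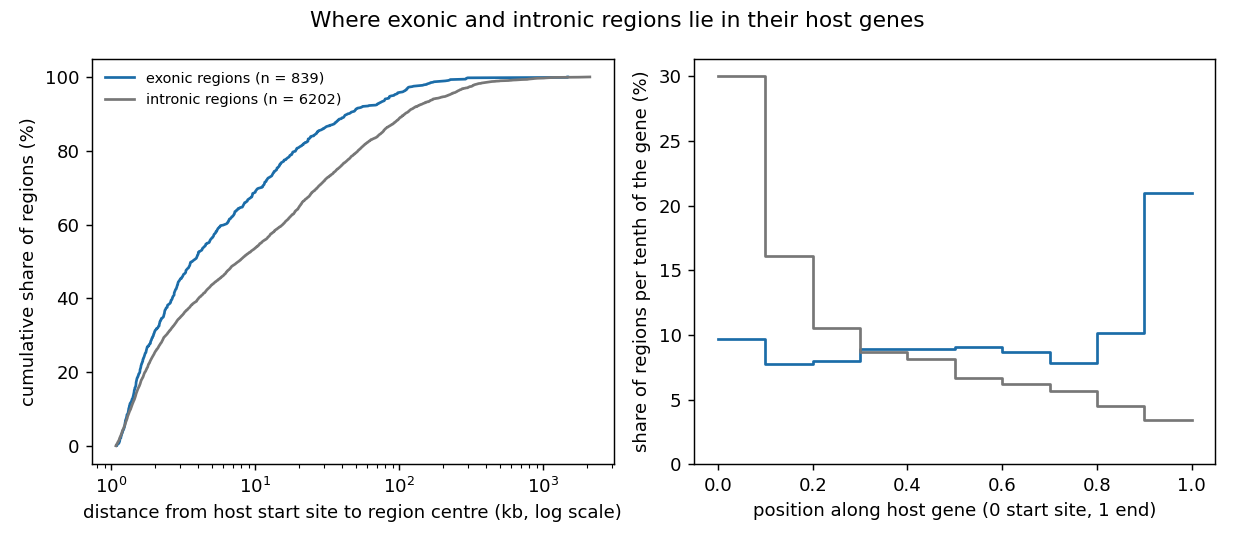
Left, cumulative share of merged regions (vertical axis, percent) by distance from the host's start site to the region centre (horizontal axis, kb, log scale), for exonic and intronic regions. Right, share of regions in successive bins of 10% of the host gene (0 the start site, 1 the end). The last bin, which takes in regions centred past the gene end, held 21.0% of the exonic and 3.42% of the intronic regions.

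Most exonic regions were called in a single library. There were 618 (73.7%, against a background of 66.2% over regions merged class by class) in 1 library, 133 in 2, 45 in 3, 21 in 4, 9 in 5 and 13 in all 6 (1.55%, background 1.38%). The 2 long lists held most of the single calls, 300 of 463 regions of germ-free replicate 2 and 254 of 423 of conventional replicate 2, against 5 of 49 in E. coli replicate 2. Regions called once had a median width of 206 bp, against 514 bp in 2 or 3 libraries and 1091 bp in 4 or more. Since intervals were merged over libraries, a region built from more of them is wider by construction. Such a region can be a chain of overlapping intervals, so the libraries that call it need not share a base. When an interval of any class counted, 34 regions were covered in all 6 libraries (4.05%, background 1.58%). Here and below, any-class backgrounds are over the 23987 regions merged over all classes. A long domain counts once among them but can hold several exonic regions, so the 2 percentages have unlike units. Of the 618 single calls, 122 had an interval of another class in some other library. An interval of the promoter class overlapped 132 of the 839 regions (15.7%) in at least 1 library.

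Of the 13 regions called exonic in every library, 9 were hosted by Sfi1, Pisd-ps1 or Pisd-ps2. The widest of all, at chr11:3130681-3148879, covered 18199 bp across the Pisd-ps1 and Sfi1 boundary. Its strongest interval had a fold over background, as the authors give it, of 28.9 and 23.4 (germ-free), 25.4 and 17.8 (E. coli), and 17.7 and 21.7 (conventional). Folds are the authors' values against each list's own background and are not compared between lists. The next in width, 10537 and 7628 bp, were also in Sfi1.

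The other 4 regions in all 6 libraries lay in Lars2, Klf5, Osr2 and the Ugt1a cluster. Lars2 encodes the mitochondrial leucyl-tRNA synthetase, and its 305 bp region (chr9:123461876-123462180) lay at 0.993 of the gene, with folds of 19.0 and 24.1, 17.2 and 9.98, and 9.91 and 19.6. It was of the exon class alone in each of the 6 lists. A stretch like ribosomal RNA is known near the end of mouse Lars2, so its reads may be shared with other copies. Klf5 encodes a zinc finger factor of proliferating intestinal crypt cells. Its region (chr14:99300814-99302960, 2147 bp) lay at 0.217 of the gene, with folds of 6.92 and 7.60, 5.92 and 4.28, and 7.78 and 9.41. Osr2 encodes an odd-skipped zinc finger factor, and its region (chr15:35298378-35303875, 5498 bp) was called with folds of 8.08 and 11.4, 5.33 and 4.28, and 9.91 and 13.04. The Ugt1a region (chr1:88219022-88220322, 1301 bp) lay at 0.998, in the last exons that the Ugt1a genes, which encode glucuronidation enzymes, have in common, so it belongs to no single one of them. Its folds were 6.92 and 7.60, 7.69 and 7.13, and 6.37 and 5.07.

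Regions called exonic in 5 libraries included Cdx2 and Gata6, which encode factors of intestinal identity, Jund, an AP-1 subunit, Actb, which encodes cytoplasmic actin, and Irf2bp2 and Bcar3. The Cdx2 region was a chain of pieces. Exonic pieces of E. coli replicates 1 and 2 and germ-free replicate 2 did not overlap one another. They lay 3723 to 4006, 5411 to 5575 and 6267 to 6484 bp from the start site. At Jund (chr8:70698953-70700443), Irf2bp2 (chr8:126588875-126592093) and Bcar3 (chr3:122512143-122513157) the library without any interval was E. coli replicate 2, the shortest list. At Cdx2, Actb and Aim1 the remaining library, conventional replicate 2, had an interval of the promoter class, and at Gata6 germ-free replicate 2 did. Foxa1, Id3, Junb, Atf4 and Elf3, all of which encode transcription regulators, had regions called in 4 libraries.

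**Figure D4:**
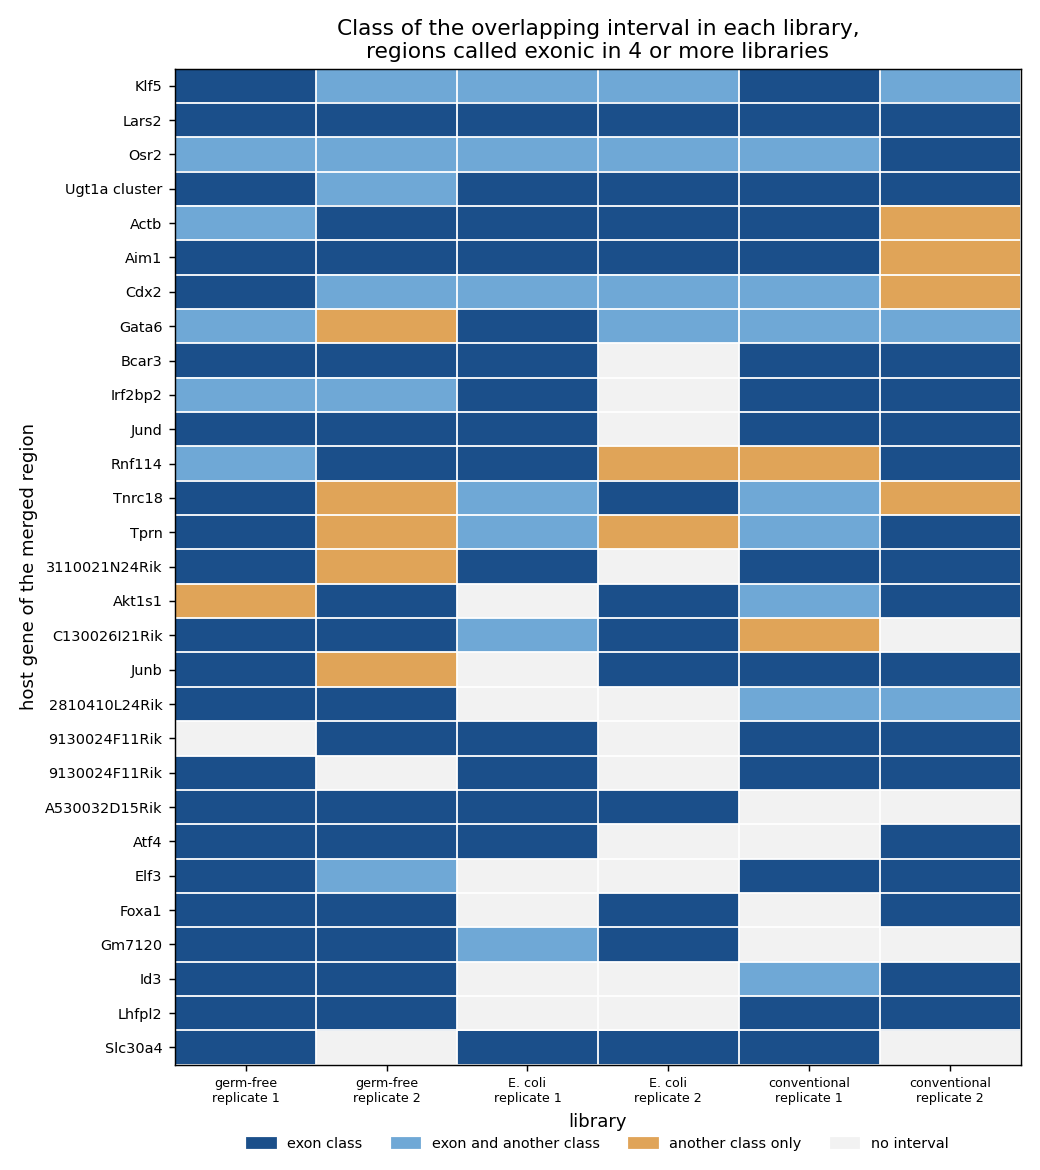
Class of the overlapping interval in each library (horizontal axis) for the 29 regions called exonic in 4 or more libraries outside the Sfi1 and Pisd hosts (vertical axis, by host gene). Lars2 is of the exon class alone in all 6 libraries, while regions such as Actb, Tnrc18 and Tprn are covered in all 6 but change class between libraries.

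Several exonic calls were pieces of longer domains that start near the promoter, and the class then turned on where an interval began. Tbx3 encodes a T-box factor. In E. coli replicates 1 and 2 and germ-free replicate 1 its leading exonic intervals began 1004, 1143 and 1350 bp after the start site. In germ-free replicate 2 and conventional replicates 1 and 2, promoter-class intervals began at 990, 939 and 712 bp and ran to 5038, 5277 and 5641 bp. The same stretch of Tbx3 was thus covered in all 6 libraries and was called exonic in 3. Zfp36 encodes tristetraprolin, which destabilises cytokine mRNAs. Its intervals were split in the E. coli libraries, with promoter-class pieces ending at 503 and 962 bp and exonic pieces beginning at 1075 and 1080 bp. In the germ-free and conventional libraries 1 promoter-class interval each ran across the same place, ending at 2490, 3347, 1995 and 2495 bp. At Cdx2, conventional replicate 2 had 1 promoter-class interval from -36 to 6484 bp, over the full 6350 bp of the gene. Germ-free replicate 1 had exonic pieces at 3822 to 3977 and 4201 to 5930 bp within the same span. A further piece, at 6333 to 6525 bp, began within it and ran past its end. E. coli replicate 2 had 1 exonic piece at 5411 to 5575 bp. The paralogue Zfp36l2 showed a pattern like that of Tbx3. Its 2 exonic regions were called in germ-free replicate 1 and both E. coli libraries. Promoter-class intervals of 2484, 2208 and 2475 bp overlapped them in the other 3. Unlike at Tbx3, a promoter-class interval also overlapped the region at chr17:84185776-84186856 in E. coli replicate 1.

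**Figure D5:**
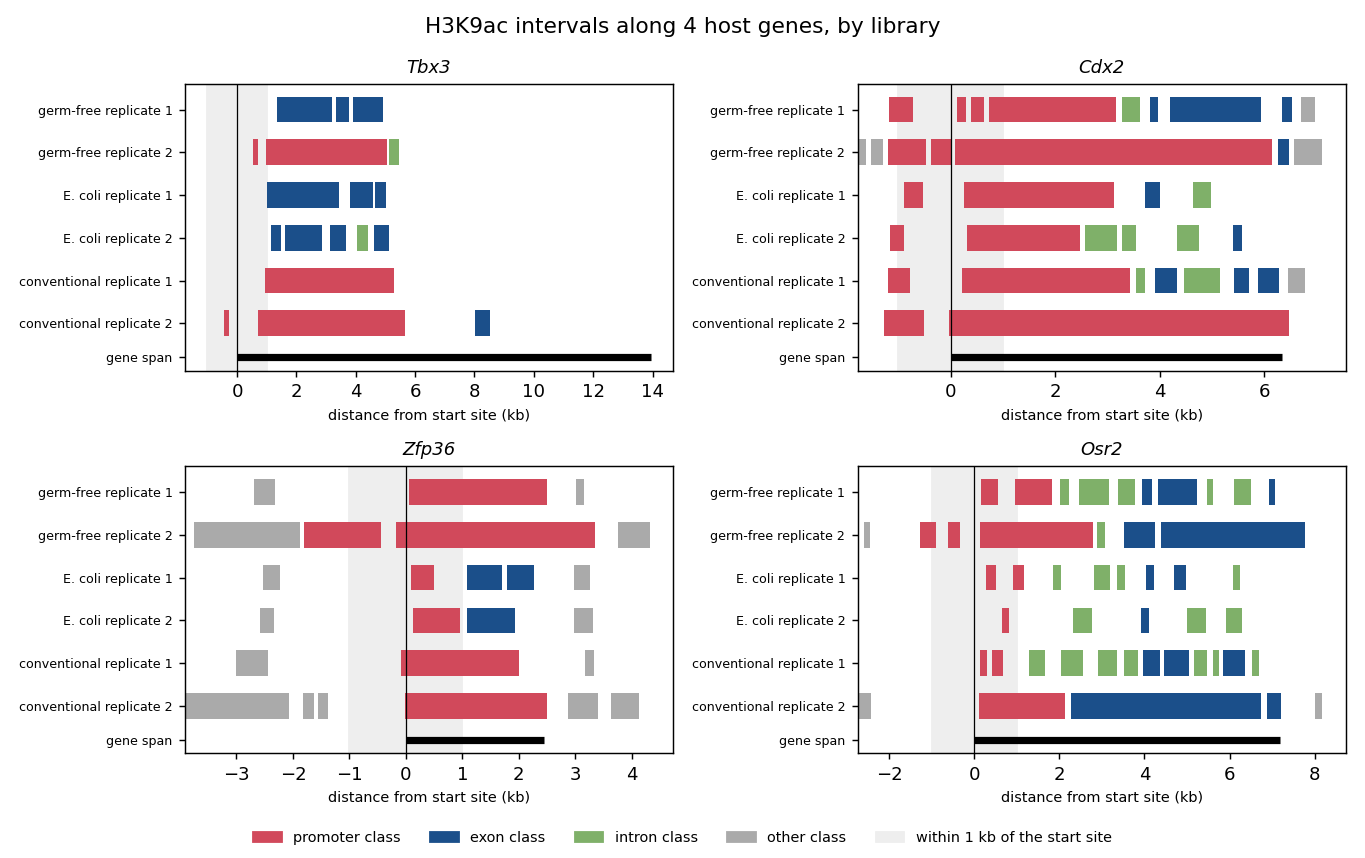
Called H3K9ac intervals along Tbx3, Cdx2, Zfp36 and Osr2 in the 6 libraries (rows), by distance from the assigned start site in kb (horizontal axis), coloured by the class in the deposited lists. At Tbx3 and Zfp36 the stretches called exonic in the E. coli libraries are mostly covered in the conventional libraries by promoter-class intervals. These begin within 1 kb of the start site. At Zfp36 that of conventional replicate 1 ends at 1995 bp, while an exonic piece of E. coli replicate 1 runs to 2265 bp.

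Presence by housing differed mostly between the E. coli libraries, which had the short lists, and the others. In the exon class, 21 regions were found in germ-free replicates 1 and 2 but in no E. coli library (2.503%, background 6.53%), and 3 the other way (0.358%, background 0.0562%). For conventional against E. coli the counts were 21 (2.503%, background 5.66%) and 10 (1.19%, background 0.169%). For germ-free against conventional they were 11 (1.31%, background 0.823%) and 8 (0.954%, background 0.679%). When an interval of any class counted, 48 regions were in each germ-free but no E. coli library (5.72%, background 6.74%) and 0 the other way (background 0.0125%). Conventional against E. coli gave 53 (6.32%, background 5.83%) and 2 (0.238%, background 0.0792%), and germ-free against conventional gave 9 (1.07%, background 0.763%) and 10 (1.19%, background 0.609%). All 3 exon-class regions shared by the E. coli libraries and called in no germ-free one, at Zfp36, Elf3 and A530032D15Rik, had an interval of another class in a germ-free library. No region pattern was tested. Leaving out a library loosens the rule for its group, because only the library left must then hold, or lack, the call. The counts below therefore tend to rise by construction and do not measure stability. Without germ-free replicate 1 the 21 germ-free regions absent from E. coli became 419, and leaving out the other germ-free library gave 72. Without conventional replicate 1 the 21 conventional regions absent from E. coli became 380, and without conventional replicate 2 they became 43. The 3 E. coli regions absent from germ-free became 29 without E. coli replicate 2, 10 without E. coli replicate 1 and 11 without germ-free replicate 1. The 10 absent from conventional became 38, 20 and 16 without E. coli replicate 2, E. coli replicate 1 and conventional replicate 1. Between germ-free and conventional libraries, the 11 became 318, 55, 17 and 27 without germ-free replicates 1 and 2 and conventional replicates 1 and 2, and the 8 became 17, 16, 269 and 24 in the same order.

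The regions ranked highest in each pattern came from genes of varied function. Tesk1, which encodes a kinase, had a region (chr4:43443346-43443651) that was exonic in both germ-free libraries, with folds of 5.77 and 7.60, and lay in a promoter-class interval in conventional replicate 2. Bbc3 encodes PUMA, an inducer of apoptosis, and its region (chr7:16313314-16314220) was exonic in germ-free replicate 2 and both conventional libraries, with folds of 5.70, 5.66 and 16.7. Asic1 (chr15:99700612-99701220) and A330035P11Rik (chr14:122105134-122105801) were called in the same 3 libraries. Ppp1r15b, which encodes a phosphatase subunit that restores translation after stress, had a region (chr1:133133183-133134198) that was exonic in conventional replicates 1 and 2 and of the promoter class in germ-free replicate 2. In conventional replicate 2 a promoter-class interval overlapped the Ppp1r15b region as well. Another region was assigned to Lgals4 and Lgals6 (chr7:28835877-28836129), close copies that encode intestinal galectins. It was of the exon class alone in conventional replicates 1 and 2 and of the promoter class in germ-free replicate 2. A region of Spns3 (chr11:72504931-72505408) was likewise exonic alone in both conventional libraries, but its interval in germ-free replicate 2 was intronic. None of these 3 regions was overlapped by an interval in germ-free replicate 1 or the E. coli libraries. The other exonic region of Ppp1r15b was called in germ-free replicate 1 and E. coli replicate 1, so the absence concerns the region and not the gene.

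Regions absent from both E. coli libraries but covered in all the other 4, by any class, numbered 18 (2.15%, background 2.41%). They included Epcam, which encodes the epithelial adhesion molecule, Elf3, an epithelial ETS factor, Jun, Nfkbia, which encodes the NF-kappaB inhibitor IkB-alpha, Id3 and Lhfpl2. At Jun (chr4:95050321-95051091) the interval was exonic in germ-free replicate 1 and conventional replicate 1, with folds of 5.19 and 6.37, and of the promoter class in germ-free replicate 2 and conventional replicate 2. At Nfkbia (chr12:55491246-55491543) the same division held, with exonic folds of 6.35 and 6.37. In both genes the long lists joined the exon to the promoter. At Id3 (chr4:136144896-136145804) all 4 were exonic, with folds of 5.77 and 6.97 (germ-free) and 6.37 and 6.52 (conventional). The number and length of the E. coli lists moved with these absences, and their part in them was not tested.

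The share of regions found in the conventional libraries alone was near the background. Covered in both conventional libraries and none of the other 4 were 7 regions (0.834%, background 0.575%), at Npc1l1, Clec2d, H2-Ab1, Irf2bpl, Als2cr12, Ccdc85c and Pura. This holds for the regions and not for the genes. Clec2d had a further exonic region called in germ-free replicate 2, and Pura had one called in germ-free replicate 2 and E. coli replicate 1. Npc1l1 encodes the cholesterol importer of the enterocyte brush border, and its region (chr11:6227694-6228127) was exonic in both, with folds of 5.66 and 5.79. Clec2d encodes a C-type lectin, and its region (chr6:129183761-129184503) was exonic in both, with folds of 4.25 and 7.24. H2-Ab1 encodes the beta chain of a class II antigen-presenting molecule. Its region (chr17:34264255-34264801) was exonic in conventional replicate 2, with a fold of 5.79, and intronic in conventional replicate 1, with a fold of 5.66. Covered in all 4 germ-free and E. coli libraries and neither conventional one were 2 regions (0.238%, background 0.0334%), at A530032D15Rik (chr1:85088132-85088626) and Gm7120 (chr13:119609786-119611273). Both were exonic in each of the 4, with folds of 12.7, 5.70, 5.92 and 6.42 at A530032D15Rik and 6.35, 5.70, 8.88 and 7.84 at Gm7120. A further A530032D15Rik region (chr1:85090338-85091085) was covered in conventional replicate 2 as well, by an intronic interval with a fold of 8.69. Sp110, a nuclear body gene, lies on chromosome 1 with A530032D15Rik and C130026I21Rik, which are related genes, and reads from close copies in this family may not be told apart. It had a region (chr1:85584615-85585177) that was exonic in both germ-free libraries and E. coli replicate 1 and not covered in the other 3, and the C130026I21Rik region (chr1:85257048-85257712) was exonic in all 4 germ-free and E. coli libraries and intronic in conventional replicate 1. The region of Sp140 (chr1:85614583-85614935), another of these genes, was covered in both conventional libraries, as exonic with a fold of 7.08 and intronic with a fold of 5.79, and in germ-free replicate 1 and E. coli replicate 1. Covered in both germ-free libraries alone were 5 regions (0.596%, background 0.684%), at Krt19, Nln, Zc3h12a, Ugt2b34 and 2310047M10Rik. Other exonic regions of Krt19, Nln and Ugt2b34 were called in conventional replicate 2. Krt19 encodes a keratin of simple epithelia, and its region (chr11:100142349-100142622) was exonic in replicate 1 and part of a 5189 bp promoter-class interval in replicate 2.

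The 839 regions carried 641 host names, which stand for 639 genes once names of the same gene are joined, and 633 of these matched the RefSeq gene table of GRCm38.p6. Protein-coding genes were 593, or 2.71% of 21900 in that table, and 32 hosts were long noncoding RNAs. More than 1 region was found in 143 host genes. Mroh2a, on chromosome 1 beside the Ugt1a genes, had 12 and its neighbour Hjurp, which encodes a centromere histone chaperone, had 7, of which some carry both names. Sfi1, Nln, which encodes the peptidase neurolysin, and Gcnt3, which encodes a glycosyltransferase of mucin synthesis, had 6 each. All 6 Gcnt3 regions were called exonic in germ-free replicate 2 alone, so the rank of Gcnt3 rests on that list. The farthest regions from a start site were 2 in Magi2, both near its end and 1475000 and 1475655 bp from its start, and 1 in Myo5b, which encodes a motor protein of apical trafficking, at 298025 bp.

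Of 16 epithelial identity genes 9 hosted an exonic region, namely Cdx2, Elf3, Epcam, Gata6, Hnf4a, Klf5, Krt18, Krt19 and Krt20, and all 16 had a promoter-class interval in some library. Over all protein-coding genes 2.71% were hosts, and the share among all genes with a promoter-class interval was not computed. By library, 6 and 8 (germ-free), 4 and 4 (E. coli) and 5 and 6 (conventional) of the 16 hosted one. Host names of all kinds numbered 109 and 379, 73 and 43, and 74 and 364 in the same order. Elf3 held 5 separate regions. Its region at chr1:135255884-135256152 was exonic in both E. coli libraries (folds 5.33 and 6.42) and conventional replicate 1 (fold 4.95), and lay within promoter-class intervals in the 2 long lists. Hnf4a, a nuclear receptor of enterocytes, and Krt18 had 1 region each, in germ-free replicate 2 alone. Krt20, a keratin of mature enterocytes, had a region in germ-free replicate 2 and conventional replicate 2 (folds 5.70 and 7.97).

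Of 32 immediate-early and stress-response genes, 17 were hosts, among them Fos, Jun, Junb, Jund, Klf4, Klf6, Dusp1, Btg1, Btg2, Mcl1, Sgk1 and Zfp36, and 28 had a promoter-class interval. Hosts were 2.71% of all protein-coding genes, and their share among all genes with a promoter-class interval was not computed. By library, 6 and 8 (germ-free), 5 and 3 (E. coli) and 7 and 8 (conventional) hosted a region. Btg1, an antiproliferative factor, held 4 regions, all in germ-free replicate 2. At Junb (chr8:84976717-84977358) the region lay at 0.93 of a short gene and was exonic in 4 libraries, with folds of 9.23 (germ-free replicate 1), 4.99 (E. coli replicate 2), 5.66 and 7.24 (conventional). Germ-free replicate 2 covered it with a promoter-class interval, and E. coli replicate 1 had none there.

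Of 26 absorptive enterocyte genes 9 were hosts and 20 had a promoter-class interval. By library, 2 and 3 (germ-free), 2 and 1 (E. coli) and 0 and 7 (conventional) hosted a region. Anpep, which encodes the brush border aminopeptidase N, had a region (chr7:79840652-79841229) that was exonic in germ-free replicate 1 and both E. coli libraries (folds 8.08, 5.92 and 4.28) and of other classes in both conventional libraries. Apoa1, Apob and Mttp, genes of lipoprotein assembly, had 1 region each, called exonic in 2, 1 and 2 libraries. Fabp2, an intracellular fatty acid binder, had a region in germ-free replicate 1 and conventional replicate 2 (folds 5.19 and 5.07). Of 23 junction genes 5 were hosts, Cdh17 and the claudin genes Cldn2, Cldn3, Cldn4 and Cldn7. The Cldn3 region (chr5:134987254-134987949) was covered in all 6 libraries and was exonic in germ-free replicate 1 and E. coli replicate 2. Hosts were 1 of 12 goblet cell genes (Muc2, in germ-free replicate 2), 0 of 9 Paneth cell genes, 2 of 13 stem and Wnt genes (Rnf43 and Sox9), 3 of 7 keratins, 3 of 18 housekeeping genes (Actb, Actg1 and Eef1a1), 1 of 20 chromatin acetylation genes (Brd2, a reader of acetylated histones) and 1 of 15 antigen presentation genes (H2-Ab1). None of the 8 stroma and muscle or 8 immune markers was a host. Gene lists differ in gene length and in how many members had a promoter-class interval, and libraries differ in their number of hosts. These counts are therefore descriptions. Beside them stands the share of hosts over all protein-coding genes, 2.71%, while the share among genes with a promoter-class interval was not computed.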

How the data were processed

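The deposited peak lists, 1 per library, were used as the authors called them. The submitters' processing notes name MACS2 2.1.1.20160309, Bowtie 1.2.0 and the mm10 build. The sources used here give neither the input control nor the calling options. The deposited lists give the fold enrichment (a ratio of signal to background), the -log10 p-value, the -log10 q-value and the region class and RefSeq gene that the authors assigned. The list of germ-free replicate 2 has 14 header names over 13 cells, and its columns were identified from the values. Lines that share an interval, such as several summits, were joined with their highest values, as exonic where any of them was, and mitochondrial intervals, which carry no class, were left out of shares. A region's host is that of its strongest interval by rank, and the fold of a library is that of its strongest exonic interval or, with none, of its strongest overlapping interval. Folds and -log10 p only describe or rank within a list. Group differences were tested by exact permutation of libraries, class differences by exact sign-flip permutation over 6 libraries, with Benjamini-Hochberg adjustment. The scripts were tested on simulated intervals with NumPy 2.4.6 and pandas 2.3.3 under Python 3.11.15; figures used matplotlib 3.10.9. The members, the 13 gene lists and the rule for named regions (called in all 6 libraries, leading a housing pattern, widest, farthest, in the hosts with most regions, or in a listed gene and called in 4 or more libraries) were chosen with earlier results of these data known. Other regions were named after their values were seen.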

Additional observations from a re-analysis of the deposited data

How the results depend on the processing

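No reported difference passed the 0.05 threshold after adjustment. Among 277 alternative values, 5 class differences did, all at an equal number of 868 intervals per list (exact permutation, adjusted p = 0.0375 each): exonic minus promoter width 240.4 bp, rank 10.1 and recurrence 24.7 points, and exonic minus intronic width 390.8 bp and rank 4.55. The adjustment covered the 6 class tests of that setting and not all 277 values. The Sfi1 and Pisd hosts supplied 13 of 48 and 13 of 29 (germ-free), 21 of 57 and 24 of 67 (E. coli), and 22 of 43 and 10 of 20 (conventional) of its exonic intervals. That setting was not run without these hosts. The conventional minus germ-free share turned to -0.344 points at -log10 q of 5 or more, -0.806 at equal number and -0.103 without the Sfi1 and Pisd hosts, an alternative added after seeing the data, as did exonic minus promoter width (-8.33 bp), rank (-9.40) and recurrence (-2.81 points). At equal number E. coli minus germ-free width was -621.8 bp and distance -2984 bp. Conventional minus germ-free distance was -10.38 bp at -log10 q of 5, and conventional minus E. coli distance was -4840 bp there, -987.8 bp at a fold of 5 and -82.9 bp with RefSeq gene spans. Under the q, fold and equal-number settings in turn, conventional minus germ-free width was 98.8, 81.2 and 178.2 bp and conventional minus E. coli width 67.5, 36.2 and 800.0 bp, in place of 29.0 and 11.2 bp. The cause was not tested.

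Exonic regions in germ-free but no E. coli libraries numbered 4 at -log10 q of 5, 13 at a fold of 5, 0 at equal number and 48 with any class, and the reverse count was 1 at -log10 q of 5 and 0 with any class. Germ-free without conventional gave 2 at -log10 q of 5 and 0 at equal number, and the reverse 2, 3 at a fold of 5 and 0 at equal number. Conventional without E. coli gave 5, 11, 0 and 53 under those 4 settings, and the reverse 5 at -log10 q of 5 and 2 with any class. Leaving out a library loosens the rule for its group, so these 6 counts tend to rise by construction. With each library left out in turn they ranged from 21 to 419, 3 to 29, 11 to 318, 8 to 269, 21 to 380 and 10 to 38. In the same runs the conventional minus germ-free share ranged from -0.116 to 0.319 points, conventional minus E. coli distance from -70.1 to 105.6 bp and exonic minus promoter recurrence from -1.80 to 6.10 points.

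With the replicate block, the E. coli minus germ-free share was 3.456 points (exact permutation p = 0.5, the smallest that 2 pairs allow). No difference could pass the threshold with or without the block, so this says nothing of stability. Shared replicate numbers are not stated to mark shared animals or days. List length limits every absence: a region missing from the 868 or 1986 E. coli intervals may carry a weaker signal.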
